A study of Mus musculus with 6 samples.

Results

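The 10 genes described here encode the machinery that makes, stores and senses transforming growth factor beta (TGF-beta): the ligands Tgfb1, Tgfb2 and Tgfb3, the receptors Tgfbr1, Tgfbr2 and Tgfbr3, and the latent binding proteins Ltbp1, Ltbp2, Ltbp3 and Ltbp4. They were chosen by name from the 21878 genes of the deposited tables, and all 10 were present and passed the filter on low counts. RNA came from soft tissue at the mouse Achilles tendon, with 3 libraries labelled HO1 to HO3 and treated by Achilles tendon amputation (called amputation 1 to 3) and 3 libraries labelled Control1 to Control3 and treated as sham (called sham 1 to 3). The series title places the comparison in a study of trauma-induced heterotopic ossification, in which bone forms in soft tissue. Strain, age, sex and the time after surgery are not given in the labels, nor whether each library is a separate animal, and p-values therefore cover the spread among these 6 libraries, which may be technical.

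TGF-beta ligands are made as precursors that are cut by furin-type proteases but stay bound to their own propeptide, which keeps them inactive. A latent binding protein (LTBP) tethers this complex to fibrillin and fibronectin fibres in the matrix, and integrins or proteases later release the ligand. Free ligand binds the type II receptor TGFBR2, which recruits and phosphorylates the type I receptor TGFBR1, and this kinase phosphorylates SMAD2 and SMAD3. TGFBR3, or betaglycan, is a co-receptor without kinase activity that presents ligand, TGFB2 above all, to TGFBR2. In tendon the pathway is known for its part in tendon formation and in scar formation after injury.

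The libraries held 23916839 to 31346730 counts, and 14561 genes were tested. Amputation 3 stood apart from the other 2 amputation libraries in its muscle content. A list of 30 skeletal muscle genes took 1.65%, 0.524% and 15.6% of the counts in amputation 1 to 3, against 19.5% to 21.6% in the sham libraries. All 30 had negative log2 fold changes, but 0 were called. Of these, 16 lay wholly below sham, beside 26.1% of all tested genes. A list of 12 tendon fibroblast genes was read beside the tissue label. It holds Tnmd and Scx beside broader fibroblast genes such as Pdgfra and Thy1, so detecting it does not settle the tissue. It took 0.17% to 0.28% of the counts in sham libraries. All 12 were detected and 8 were called higher after amputation, among them Tnmd and Scx. Beside this list and those below, 20.4% of all tested genes were called higher and 12.3% lower. Their summed level was 4960 to 9998 CPM (counts scaled to a common library total, with TMM factors) in amputation libraries, against 1757 to 2783 CPM in sham libraries. Macrophage markers summed to 1124 to 1395 CPM in amputation libraries, against 376 to 474 CPM in sham libraries, with 13 of 14 called higher. Chondrocyte markers summed to 2691 to 11664 CPM in amputation libraries, against 484 to 1719 CPM in sham libraries, with 10 of 11 tested called higher. Osteoblast markers summed to 532 to 2300 CPM in amputation libraries, against 126 to 424 CPM in sham libraries. Of these, 3 of 9 tested were called higher, and their median log2 fold change was -0.03. Endothelial markers summed to 558 to 874 CPM in amputation libraries, against 1143 to 1329 CPM in sham libraries, with 6 of 10 called lower. Adipocyte markers summed to 311 to 638 CPM in amputation libraries, against 1954 to 2889 CPM in sham libraries, with 8 of 8 called lower. In bulk tissue, a change in the number of cells of a type and a change in RNA per cell cannot be told apart. The part of these cell types in the results below was not tested. Values with the muscle list as a covariate are given beside them as a description. That list summed to 5433 to 164318 CPM in amputation libraries and 193330 to 223351 CPM in sham libraries. The groups did not overlap in this sum, so muscle content and surgery cannot be told apart. The covariate itself was the mean log2 CPM of the list, not this sum.

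After amputation, 5 of the 10 genes were higher and 1 was lower. Tgfb1, Tgfbr2, Ltbp1, Ltbp2 and Ltbp3 rose, each by a factor between 2.08 and 2.79. Tgfbr3 fell to 0.523 of its sham level. Tgfb2, Tgfb3, Tgfbr1 and Ltbp4 did not pass the test. Over all tested genes 20.4% were called higher and 12.3% lower (n = 3 per group, quasi-likelihood test of edgeR, Benjamini-Hochberg adjusted p below 0.05). The median log2 fold change of the 10 genes was 0.98, beside -0.02 for all tested genes. Amputation lay wholly above sham for 6 genes and wholly below for 1, beside 28.7% and 26.1% of all tested genes. The counts of calls changed when a library was left out, and so did the shares over all genes. With amputation 1, 2 and 3 left out in turn, 1, 3 and 7 of the genes were higher, beside 10.8%, 12.6% and 28.5% of all genes, and 0, 0 and 1 were lower, beside 4.68%, 6.05% and 29.7%. With sham 1, 2 and 3 left out in turn, 1, 1 and 0 were higher, beside 10.6%, 7.39% and 9.19% of all genes, and 0, 0 and 1 were lower, beside 4.55%, 2.95% and 5.40%. With the mean level of the muscle list as a covariate, 3 were higher (Tgfb1, Tgfbr2 and Ltbp1) and 1 lower (Tgfbr3), where 12.3% of all genes were called higher and 6.87% lower. DESeq2's Wald test called 6 higher and 1 lower, beside 21.3% and 17.1% of all genes, and the fit with a replicate block called 5 higher and 1 lower, beside 21.7% and 17.3%. The other 8 alternatives each called 5 higher and 1 lower, beside 15.3% to 21.1% and 9.68% to 15.1% of all genes.

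**Figure D1:**
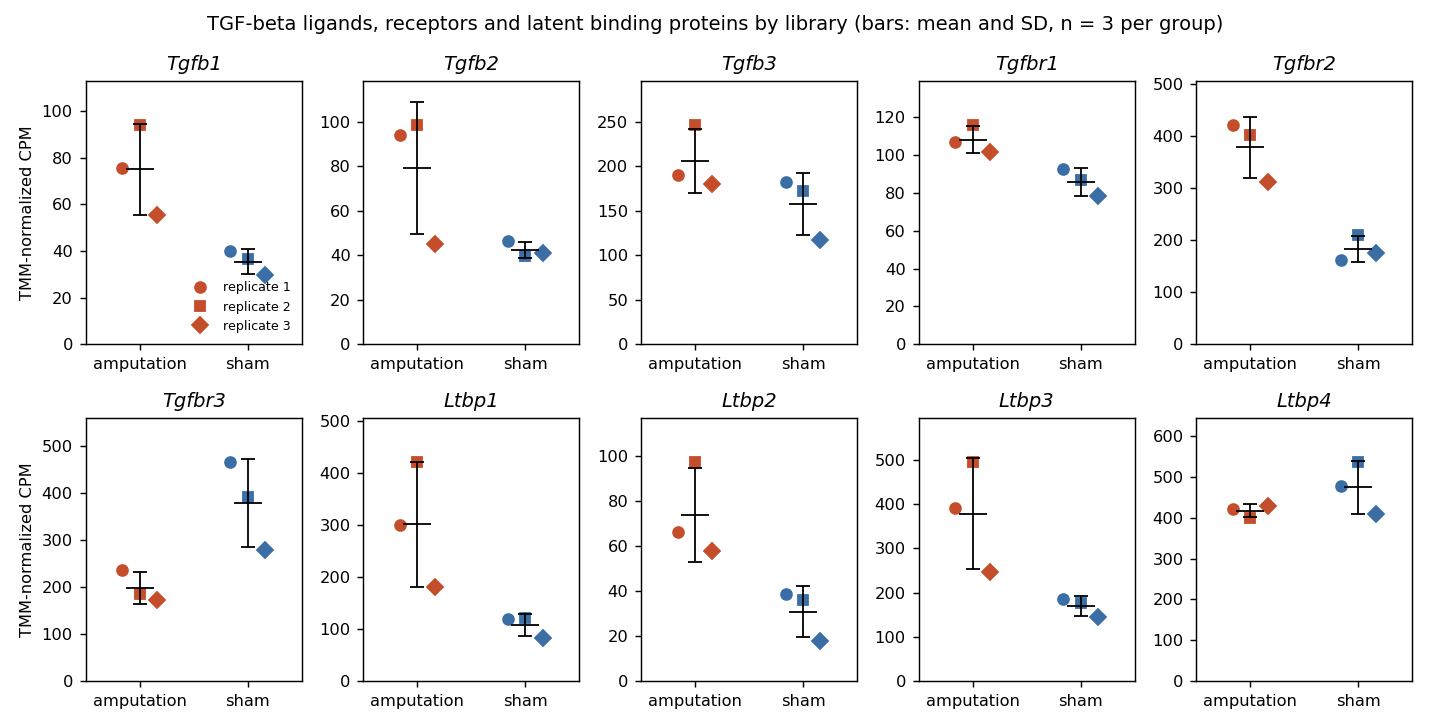
Level of each gene in TMM-normalized CPM in the 3 amputation and 3 sham libraries (symbols mark the replicate number, horizontal ticks the mean and bars the SD). The groups are apart for Tgfb1, Tgfbr1, Tgfbr2, Tgfbr3, Ltbp1, Ltbp2 and Ltbp3, with Tgfbr3 the one that is lower after amputation.

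Tgfb1 (NCBI gene 21803, GRCm38.p6 chromosome 7, 25687002 to 25705077) encodes the ligand most often linked to fibrosis and wound repair. Its level was 75.6, 94.1 and 55.3 CPM in amputation 1 to 3, against 40.1, 36.5 and 29.5 CPM in sham 1 to 3. Every amputation library was above every sham library, and the lowest of the amputation libraries was the muscle-rich amputation 3. The log2 fold change was 1.08 ± 0.22 (SE, n = 3 per group), a factor of 2.12, with adjusted p = 0.0157 in edgeR's test. It was not called without amputation 1 (1.08), sham 2 (1.08) or sham 3 (0.93), and it was called at 0.60 with the muscle covariate.

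Tgfb2 (NCBI gene 21808, chromosome 1, 186622787 to 186709697), the ligand that depends most on betaglycan for receptor binding, had 93.9, 98.5 and 45.2 CPM in amputation 1 to 3, against 46.4, 39.4 and 41.1 CPM in sham 1 to 3. Amputation 1 and 2 lay far above every sham library, while amputation 3 lay within the sham range. The log2 fold change of 0.90 ± 0.30 had an adjusted p of 0.0575 in edgeR's test and was not called. Without amputation 3 it was 1.19 and called. With the muscle covariate it was 0.12 and not called, and DESeq2's Wald test called it at 0.91. Beside these, amputation 3 held 15.6% muscle counts and amputation 1 and 2 held 1.65% and 0.524%.

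Tgfb3 (NCBI gene 21809, chromosome 12, 86056743 to 86079041), a ligand known from palate development and from tendon formation, had 190.7, 246 and 179.5 CPM in amputation 1 to 3, against 182, 173 and 118 CPM in sham 1 to 3. The groups overlapped. Its log2 fold change was 0.39 ± 0.23 with adjusted p = 0.218 in edgeR's test, and it was called under none of 17 alternatives, with values between 0.12 and 0.50.

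The promoters of the 5 genes that rose are shown because these genes were all called higher. Each window runs from 250 bases before to 50 bases after an annotated start (RefSeq, GRCm38.p6), and such windows were at hand for 8 of the 10 genes. Capitals mark matches, on either strand, to 4 sequences: the GC box GGGCGG bound by SP1-type factors, the SMAD box CAGAC, the cyclic AMP response element TGACGTCA and the AP-1 site TGANTCA.
Tgfb1, chr7:25686752-25687051, plus strand: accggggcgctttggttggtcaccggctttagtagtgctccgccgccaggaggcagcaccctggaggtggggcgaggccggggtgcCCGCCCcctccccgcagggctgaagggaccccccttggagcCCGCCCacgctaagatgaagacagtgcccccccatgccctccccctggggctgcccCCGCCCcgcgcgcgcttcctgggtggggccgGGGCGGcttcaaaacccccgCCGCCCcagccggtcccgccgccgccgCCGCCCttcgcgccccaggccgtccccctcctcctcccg
Tgfbr2, chr9:116175314-116175613, minus strand: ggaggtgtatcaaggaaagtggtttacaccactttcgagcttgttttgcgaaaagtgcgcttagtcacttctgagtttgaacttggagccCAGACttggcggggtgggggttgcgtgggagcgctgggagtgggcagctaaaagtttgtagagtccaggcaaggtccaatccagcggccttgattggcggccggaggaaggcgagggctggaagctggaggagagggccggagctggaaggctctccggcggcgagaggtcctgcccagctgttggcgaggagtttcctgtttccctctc
Ltbp1, chr17:75005279-75005578, plus strand: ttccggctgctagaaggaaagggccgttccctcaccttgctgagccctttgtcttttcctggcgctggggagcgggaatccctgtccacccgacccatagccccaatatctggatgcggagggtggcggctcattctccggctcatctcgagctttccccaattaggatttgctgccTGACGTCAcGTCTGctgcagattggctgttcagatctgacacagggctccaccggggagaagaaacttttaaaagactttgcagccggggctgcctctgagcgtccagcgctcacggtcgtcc
Ltbp2, chr12:84876442-84876741, minus strand: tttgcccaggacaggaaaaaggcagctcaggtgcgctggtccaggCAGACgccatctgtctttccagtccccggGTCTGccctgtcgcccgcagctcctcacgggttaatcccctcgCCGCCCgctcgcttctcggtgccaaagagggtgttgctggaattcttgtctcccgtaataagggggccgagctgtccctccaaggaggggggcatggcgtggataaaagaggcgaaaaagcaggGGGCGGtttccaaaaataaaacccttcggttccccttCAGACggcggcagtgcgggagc
Ltbp3, chr19:5740650-5740949, plus strand: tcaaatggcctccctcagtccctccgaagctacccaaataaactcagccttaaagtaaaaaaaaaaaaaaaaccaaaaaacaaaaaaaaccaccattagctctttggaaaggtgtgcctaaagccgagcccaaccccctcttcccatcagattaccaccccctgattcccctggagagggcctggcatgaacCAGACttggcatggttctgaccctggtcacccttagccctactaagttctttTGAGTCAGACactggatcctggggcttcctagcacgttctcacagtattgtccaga

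No match was shared by all 5 of these windows. The Tgfb1 window held 6 GC boxes and no SMAD box. Those of Tgfbr2, Ltbp1, Ltbp2 and Ltbp3 held 1, 1, 3 and 2 SMAD boxes, a short sequence found in 49.5% of 32544 promoter windows of the same length. The Ltbp2 window also held 2 GC boxes. A second Ltbp1 window, at chr17:75178531-75178830, held 2 SMAD boxes and no cyclic AMP response element. The Ltbp1 window held the 1 cyclic AMP response element seen, which 1.8% of all windows hold. The Ltbp3 window held the 1 AP-1 site, which 7.79% of all windows hold, and it overlapped a SMAD box by its last 2 letters. GC boxes were present in 35.9% of all windows. Of the 3 other genes with a window, Tgfb2 held 2 SMAD boxes. The first of 2 Tgfbr1 windows held 2 GC boxes and the other 1 SMAD box. Each of the 3 Ltbp4 windows held 3 or more GC boxes and no SMAD box. Of the Ltbp4 windows, chr7:27333599-27333898 and chr7:27333614-27333913 overlap in most of their bases, so they share GC boxes. A match of letters is not a measured binding site.

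The receptor genes moved in different directions. Tgfbr2 (NCBI gene 21813, chromosome 9, 116087695 to 116175363), the ligand-binding kinase, had 421, 402 and 311 CPM in amputation 1 to 3, against 162, 209.8 and 175 CPM in sham 1 to 3. The amputation libraries all lay well above sham, amputation 3 included. Its log2 fold change was 1.05 ± 0.20, a factor of 2.08 (adjusted p = 0.0127, edgeR's quasi-likelihood test). It was 0.80 and called with the muscle covariate, and it was not called without sham 1 (0.97) or sham 3 (0.99).

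Tgfbr3 (NCBI gene 21814, chromosome 5, 107106567 to 107289629), the co-receptor betaglycan, was the 1 gene of the 10 that fell. Its level was 236, 186 and 173 CPM in amputation 1 to 3, against 467, 391 and 279 CPM in sham 1 to 3. All amputation libraries lay below all sham libraries, and the muscle-rich amputation 3 was the lowest of the 6. On the log2 scale the fold change was -0.94 ± 0.25 (adjusted p = 0.0325, edgeR's quasi-likelihood test), and -1.10 and called with the muscle covariate. It was not called without amputation 1 (-1.08), amputation 2 (-0.89), sham 1 (-0.76) or sham 2 (-0.94).

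Tgfbr1 (NCBI gene 21812, chromosome 4, 47353222 to 47414926), the kinase that phosphorylates SMAD2 and SMAD3, had 107, 116 and 101 CPM in amputation 1 to 3, against 92.4, 86.6 and 78.2 CPM in sham 1 to 3. The groups did not overlap, but the difference was small, at log2 0.33 ± 0.13, a factor of 1.26, and it was not called (adjusted p = 0.0836, edgeR's quasi-likelihood test). Without amputation 3 it was called at 0.38.

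Among the latent binding proteins, 3 of 4 rose. Ltbp1 (NCBI gene 268977, chromosome 17, 75005480 to 75392512), which carries latent TGF-beta and docks it to fibrillin, had the largest log2 fold change of the 10 genes. It had 300.5, 423 and 182 CPM in amputation 1 to 3, against 119, 122 and 83.1 CPM in sham 1 to 3. The groups were apart, and amputation 3 was the library nearest to sham. The log2 fold change was 1.48 ± 0.34, a factor of 2.79 (adjusted p = 0.0209, edgeR's quasi-likelihood test). It was 0.69 and called with the muscle covariate, and it was not called without amputation 1 (1.49), sham 1 (1.55), sham 2 (1.55) or sham 3 (1.29).

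Ltbp3 (NCBI gene 16998, chromosome 19, 5740900 to 5758536), a carrier of latent TGF-beta needed for normal skeletal growth, had 392, 496 and 247 CPM in amputation 1 to 3, against 186, 176 and 144 CPM in sham 1 to 3. Again no libraries of the groups overlapped, and amputation 3 lay nearest to sham. The log2 fold change was 1.17 ± 0.29, a factor of 2.24 (adjusted p = 0.0256, edgeR's quasi-likelihood test). It was 0.51 and not called with the muscle covariate, and it was called among the settings that leave out a library only without amputation 3 (1.40), with values of 1.14 and 0.93 without amputation 1 and 2 and of 1.24, 1.17 and 1.03 without sham 1 to 3.

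Ltbp2 (NCBI gene 16997, chromosome 12, 84783212 to 84876558) is the member of this family that does not bind latent TGF-beta and is instead a microfibril protein. It had 65.9, 97.3 and 57.5 CPM in amputation 1 to 3, against 38.6, 36.0 and 17.7 CPM in sham 1 to 3, with no overlap. Sham 3 was well below the other 2 sham libraries, at log2 -0.71 from the sham mean. On the log2 scale the fold change was 1.26 ± 0.34, a factor of 2.39 (adjusted p = 0.0343, edgeR's quasi-likelihood test). It was 0.80 and not called with the muscle covariate, and not called without amputation 1 (1.33), amputation 2 (1.01), sham 1 (1.45), sham 2 (1.36) or sham 3 (0.95).

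Ltbp4 (NCBI gene 108075, chromosome 7, 27305140 to 27339720), which also takes part in elastic fibre assembly, had nearly the same level in all amputation libraries, at 423, 400.3 and 429 CPM in amputation 1 to 3, against 478, 538 and 408 CPM in sham 1 to 3. The groups overlapped. Its log2 fold change was -0.19 ± 0.19 (adjusted p = 0.467, edgeR's quasi-likelihood test), and it was called under none of 17 alternatives, with values between -0.32 and -0.11.

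**Figure D2:**
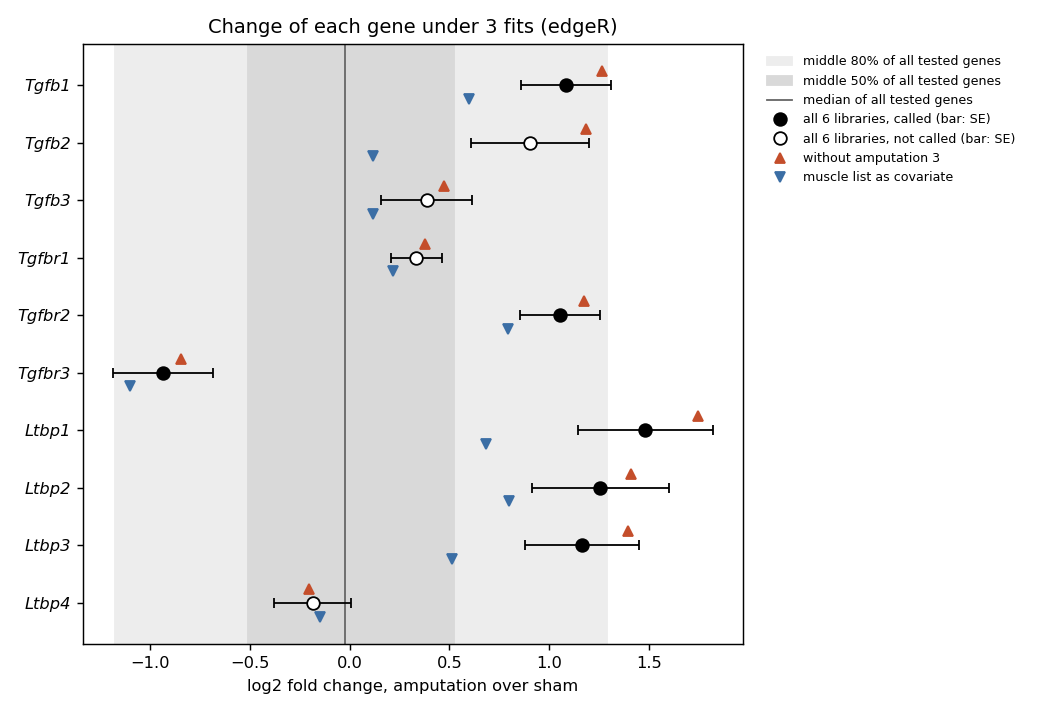
Log2 fold change of each gene, amputation over sham, with all 6 libraries (circles, filled where called, bars the SE), without amputation 3 (upward triangles) and with the muscle list as a covariate (downward triangles), over grey bands that hold the middle 50% and 80% of all tested genes. With all 6 libraries Ltbp1 lies beyond the 80% band at 1.48, and Tgfb2 is at 1.19 without amputation 3 and at 0.12 with the muscle covariate.

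The libraries of a group kept much the same order from gene to gene. Amputation 3 was the lowest of its group for 9 of the 10 genes, the exception being Ltbp4, and amputation 2 was the highest for 7. The muscle share was 15.6% in amputation 3 and 0.524% in amputation 2. Relative to the sham mean, amputation 3 stood at log2 0.66 for Tgfb1, 0.10 for Tgfb2, 0.78 for Tgfbr2, 0.77 for Ltbp1 and 0.56 for Ltbp3, against 1.42, 1.22, 1.15, 1.99 and 1.56 for the same genes in amputation 2. In the sham group sham 3 was the lowest library for 8 of the 10 genes, with a muscle share of 21.6%. Sham 1 was the highest for 7 genes at a muscle share of 20.0%, and sham 2 for 3 genes at 19.5%. The part of muscle content in the order of the libraries was not tested. Tgfbr3, which fell, was also lowest in amputation 3, at -1.10 against -0.65 in amputation 1 and -0.998 in amputation 2, so for this gene amputation 3 was the library farthest below the sham mean.

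**Figure D3:**
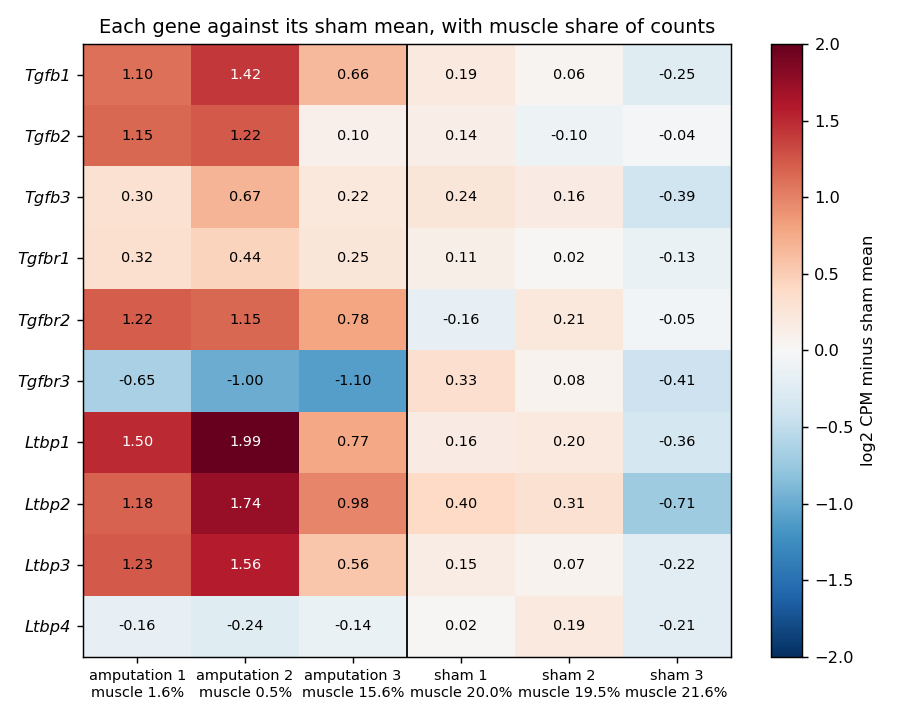
Log2 CPM of each gene minus its mean over the 3 sham libraries, by library (colour and printed value), with the share of counts taken by 30 skeletal muscle genes under each library name. Amputation 3, with 15.6% muscle counts, has paler red cells than amputation 1 and 2 for the genes that rose, and a value of -1.10 for Tgfbr3.

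Levels of different genes were compared on the deposited FPKM values, which divide by gene length. After amputation Tgfbr2 was the most abundant of the 10 at 79.6 ± 17.2 FPKM (SD, n = 3), followed by Ltbp4 at 70.4 ± 6.51, Ltbp3 at 69.5 ± 23.5 and Tgfb3 at 60.7 ± 9.94 FPKM, and these neighbours overlapped in their library ranges. Ltbp1 at 36.7 ± 14.5, Tgfb1 at 34.6 ± 9.23 and Tgfbr3 at 33.1 ± 8.34 FPKM formed a middle group whose ranges overlapped. Tgfbr1 at 17.6 ± 1.73, Tgfb2 at 14.8 ± 5.96 and Ltbp2 at 9.79 ± 2.62 FPKM were the least abundant. In sham libraries Ltbp4 came first at 79.9 ± 12.6 FPKM, followed by Tgfbr3 at 62.9 ± 17.3, Tgfb3 at 46.7 ± 11.5, Tgfbr2 at 38.01 ± 5.40 and Ltbp3 at 30.9 ± 4.96 FPKM, each overlapping the next. Tgfb1 at 16.3 ± 2.93, Tgfbr1 at 14.0 ± 1.57, Ltbp1 at 13.1 ± 2.96, Tgfb2 at 7.78 ± 0.826 and Ltbp2 at 4.13 ± 1.61 FPKM followed. Betaglycan thus ranked 2 in sham libraries and 7 after amputation, while Tgfbr2 ranked 1 after amputation and 4 in sham libraries.

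The make-up of each family was then described as the share of each gene in the summed FPKM of its family, a measure that does not depend on how libraries are scaled. Among the receptors, Tgfbr2 made up 60.9%, 62.9% and 59.1% in amputation 1 to 3, against 26.8%, 35.8% and 38.3% in sham 1 to 3. Tgfbr3 made up 27.1%, 23.0% and 25.9% in amputation 1 to 3, against 61.3%, 52.7% and 48.4% in sham 1 to 3. In both shares all amputation libraries, amputation 3 included, lay apart from all sham libraries, and amputation 3 had the lowest Tgfbr2 share of its group. The FPKM ratio of Tgfbr2 to Tgfbr3 was 2.25, 2.73 and 2.28 in amputation 1 to 3, against 0.437, 0.678 and 0.791 in sham 1 to 3, a ratio chosen after its values were seen and given with no test. Tgfbr1 made up 13.7% ± 1.51 after amputation and 12.2% ± 0.956 in sham (SD, n = 3 each).

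Among the ligands Tgfb3 was the most abundant in all 6 libraries, with 55.8% ± 4.74 of the ligand FPKM after amputation and 65.6% ± 3.03 in sham (SD, n = 3 each). Tgfb1 made up 32.1%, 32.2% and 29.3% in amputation 1 to 3, against 22.8%, 22.4% and 24.3% in sham 1 to 3, with no overlap. Tgfb2 made up 13.0% ± 3.21 after amputation and 11.3% ± 2.02 in sham, and the groups overlapped. Among the latent binding proteins Ltbp4 made up 37.8%, 30.3% and 49.1% in amputation 1 to 3, against 59.97%, 63.6% and 64.0% in sham 1 to 3, and Ltbp3 made up 36.5% ± 5.22 after amputation and 24.2% ± 1.40 in sham. Ltbp1 made up 19.1% ± 4.05 after amputation and 10.2% ± 0.724 in sham, and Ltbp2 made up 5.24% ± 0.582 after amputation and 3.14% ± 0.842 in sham. In exact two-sided permutation tests of the 10 shares, 8 reached p = 0.1, the smallest that 3 against 3 libraries allow, or 0.125 after Benjamini-Hochberg adjustment over the 10, so none could pass the threshold. The other 2 were Tgfbr1 (exact permutation p = 0.2) and Tgfb2 (exact permutation p = 0.7). The summed FPKM of the 3 ligands was 110.1 ± 24.5 after amputation and 70.8 ± 14.98 in sham (exact permutation p = 0.2, n = 3 each), that of the 3 receptors was 130.3 ± 26.6 after amputation and 114.9 ± 19.9 in sham (exact permutation p = 0.5), and that of the 4 latent binding proteins was 186 ± 40.6 after amputation and 128 ± 21.4 in sham (exact permutation p = 0.2).

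**Figure D4:**
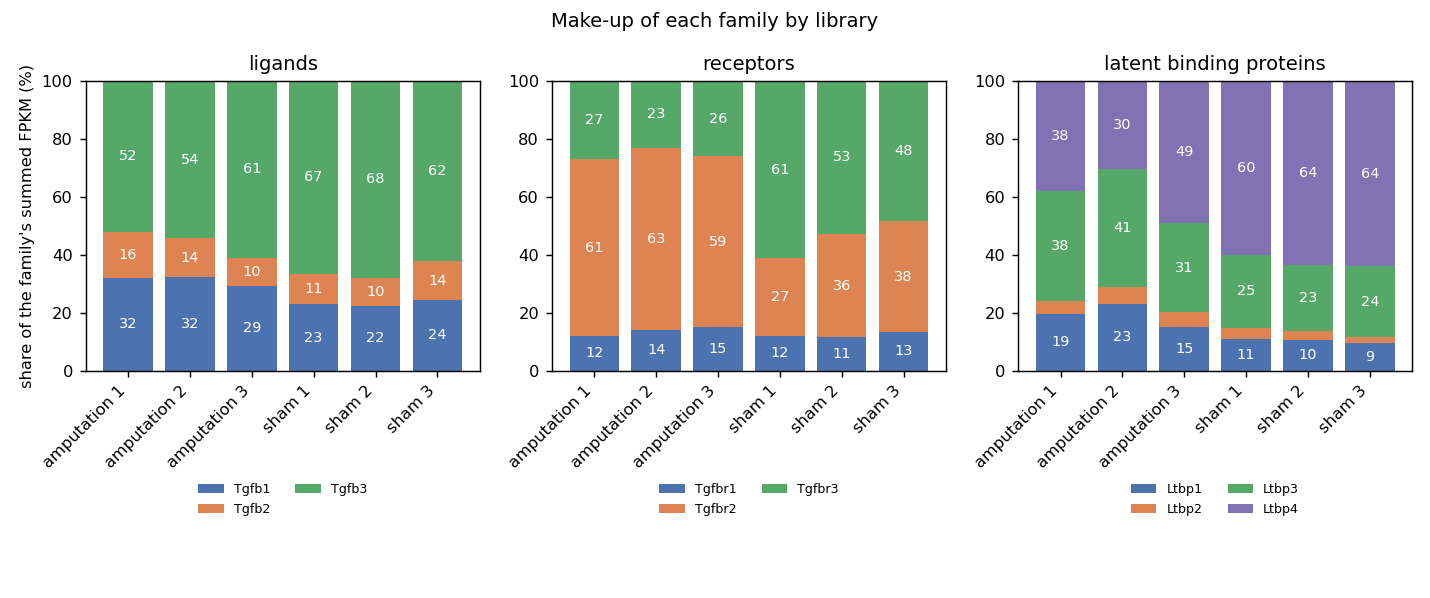
Share of each gene in the summed FPKM of its family (percent, stacked to 100) in each library, for ligands, receptors and latent binding proteins, with amputation libraries on the left. Tgfbr2 takes 59.1% to 62.9% of the receptor FPKM in amputation libraries and 26.8% to 38.3% in sham libraries.

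Genes that act on either side of these 10 were read from 4 lists of pathway genes. Of 83 tested, 41 were higher and 4 lower (edgeR's quasi-likelihood test, beside 20.4% and 12.3% of all genes). These counts changed too when a library was left out. Without amputation 1, 2 and 3 in turn 20, 27 and 50 were higher, beside 10.8%, 12.6% and 28.5% of all genes. In the same fits 1, 2 and 13 were lower, beside 4.68%, 6.05% and 29.7%. Without sham 1, 2 and 3 in turn 15, 11 and 15 were higher, beside 10.6%, 7.39% and 9.19% of all genes, and 2, 1 and 3 were lower, beside 4.55%, 2.95% and 5.40%. The fit with the muscle covariate called 28 higher and 5 lower, beside 12.3% and 6.87% of all genes.

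Of 21 tested genes that release or anchor the latent complex, 14 were higher, 2 lower and 5 not called, with a median log2 fold change of 0.89 beside -0.02 for all genes. Fbn2, which encodes fibrillin-2 of the microfibrils to which LTBPs dock, was 549 ± 214 CPM after amputation and 8.19 ± 1.44 CPM in sham (SD, n = 3 each), a log2 fold change of 6.07 ± 0.41. The matrix proteases Mmp14 (log2 4.25 ± 0.43) and Mmp2 (3.58 ± 0.42) rose too, and adjusted p was at most 0.0044 for these 3 in edgeR's test. The transglutaminase gene Tgm2, whose product crosslinks latent complexes to the matrix, had a log2 fold change of -0.996 ± 0.21 and was lower, and the furin-like convertase gene Pcsk6 fell by 0.62 ± 0.16. Tgm2 was not called without amputation 1 (-0.86), sham 2 (-0.94) or sham 3 (-1.04), and Pcsk6 was not called without amputation 1 (-0.72), amputation 2 (-0.52), sham 1 (-0.52) or sham 2 (-0.63), in both fits on FPKM (-0.57 and -0.61) or with the muscle covariate (-0.57).

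Of 16 genes for ligand traps and co-receptors, 7 were higher, none lower and 9 not called, with a median of 0.66. The small proteoglycans Aspn (log2 3.33 ± 0.27) and Bgn (3.14 ± 0.50), whose products can bind TGF-beta, and Emilin1 (2.94 ± 0.41), whose product restrains cleavage of the TGFB1 precursor, led the list. Aspn had 724 ± 190 CPM after amputation and 71.9 ± 6.13 CPM in sham (SD, n = 3 each; adjusted p = 0.00303, edgeR's quasi-likelihood test).

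Of the 19 intracellular transducers and inhibitors, 3 were higher, 2 lower and 14 not called, shares near the 20.4% and 12.3% of all genes, and their median was -0.08. Smad7, an inhibitor that TGF-beta itself induces and that targets TGFBR1 for degradation, had 21.2, 20.1 and 20.4 CPM in amputation 1 to 3, against 38.3, 42.8 and 38.8 CPM in sham 1 to 3. The libraries were tight within each group, and amputation 3 was no nearer to sham than the others. Smad7 fell by 0.96 ± 0.10 on the log2 scale (adjusted p = 0.00387, edgeR's quasi-likelihood test) and was called under all 17 alternatives. Smad6, an inhibitor mainly of the BMP branch, fell by 0.84 ± 0.25 and was not called without amputation 1 (-0.83), amputation 2 (-0.94), sham 1 (-0.58) or sham 2 (-0.89), with upper quartile scaling (-0.79), in limma-voom (-0.80) or on FPKM (-0.65 and -0.78). The nuclear corepressors Tgif1 (0.80 ± 0.15), Skil (0.71 ± 0.19) and Tgif2 (0.81 ± 0.24, at 3.54 ± 0.500 CPM after amputation and 2.02 ± 0.443 CPM in sham) rose. Tgif1 was not called without sham 2 (0.82) or sham 3 (0.71). Skil and Tgif2 were called without amputation 3, but not without any other library, where Skil lay between 0.54 and 0.70 and Tgif2 between 0.62 and 0.97. With the muscle covariate neither was called (0.27 and 0.66), and Tgif2 was also not called with no filter on low counts (0.78) or on FPKM (0.25 and 0.67). The receptor-regulated genes Smad2 and Smad3 and the shared partner Smad4 were not called, at 0.36, 0.28 and 0.01, and were named after their values were seen.

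Of 27 genes known as TGF-beta responses, 17 were higher, none lower and 10 not called, with a median of 1.41. Postn, a matrix protein of healing connective tissue, rose by log2 4.93 ± 0.32, at 2210 ± 384 CPM after amputation and 72.2 ± 7.999 CPM in sham (SD, n = 3 each). The collagen gene Col5a1 (3.38 ± 0.46) and the tenascin gene Tnc (3.45 ± 0.49) were next by p-value (adjusted p at most 0.00612 for the 3, edgeR's quasi-likelihood test). The list mixes early targets with matrix genes that fibroblasts and other cells also express without TGF-beta. The smooth muscle actin gene Acta2, a myofibroblast marker named after its values were seen, was at -0.01 ± 0.23 and not called. It is a single gene of a list in which 24 values were positive and 3 negative. Tagln, Cnn1 and Tpm1, other contractile genes of the list, are not described here. Vascular smooth muscle markers summed to 956 to 1147 CPM in amputation libraries and 1400 to 1785 CPM in sham libraries. Of these, 6 of 8 were called lower, beside 12.3% of all genes. The part of vascular cells in the Acta2 value was not tested.

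**Figure D5:**
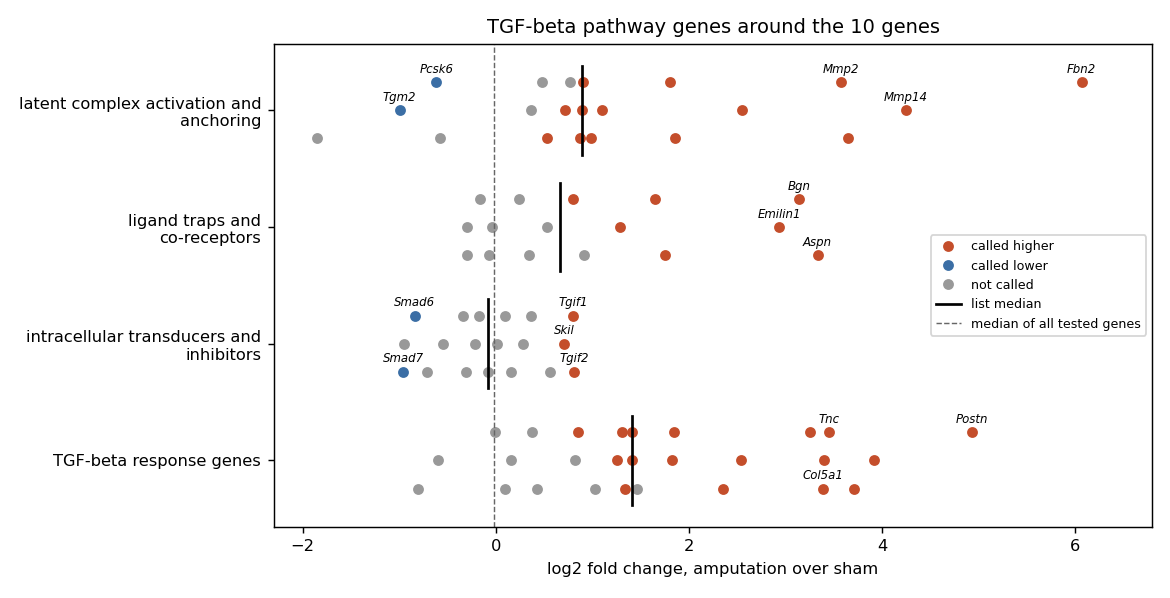
Log2 fold change, amputation over sham, of each tested gene in 4 lists around the TGF-beta genes (dots, coloured by call), with the list median (black bar) and the median of all tested genes (dashed line). Response genes and genes of latent complex activation reach to the right, with medians of 1.41 and 0.89, while the transducers centre on -0.08.

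Genes whose log2 CPM profile over the 6 libraries lay nearest to each ligand were looked up among 11291 tested genes with a mean of at least 5 CPM. For Tgfb1 they were BC017643, Lpar1 and Snx18, with root mean square differences of 0.04, 0.05 and 0.05 on the log2 scale. For Tgfb2 they included Klf16 and Dennd4a, at 0.10 and 0.11, and for Tgfb3 they were Kank2, Rnf219 and Asb6, at 0.07, 0.09 and 0.10. With 6 libraries in 2 groups, such likeness is a description only.

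Some of the 10 genes share exon bases with other annotated genes (GENCODE M21, GRCm38), and the strand setting of the counting is not given in the sources used here. Genes on the opposite strand share 764 of 8184 exon bases of Ltbp2 (D030025P21Rik), 124 of 5791 of Tgfb2 (Gm29491), and 163 and 257 of 3383 of Tgfb3 (Gm37804 and Gm48008). On the same strand, Gm43422 shares 297 of 6545 exon bases of Tgfbr3. Tgfb1, Tgfbr1, Tgfbr2, Ltbp1 and Ltbp4 share none. Of the pathway genes named by smallest p, Fbn2, Tgm2, Aspn, Tgif2, Col5a1 and Tnc share exon bases with a gene on the opposite strand. Pcsk6 shares exon bases with one on the same strand. The overlap is large for Tgif2, where 2171 of 3832 exon bases are shared with 5430405H02Rik and 189 with Gm37790, so the value given for Tgif2 is uncertain.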

How the data were processed

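The labels' protocols name mirVana for RNA isolation and a stranded TruSeq total RNA kit with ribosomal RNA removal. Trimmomatic, HISAT2 and GRCm38.p6 are named in the submitters' processing notes, without versions, and the counting program and its strand setting are not given in the sources used here. The authors deposited whole read counts per gene, not normalized, and FPKM, which are those counts per gene length and library total: the gene length they imply was whole, within 0.01 bases, for 100% of the 15164 genes counted in every library.

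Counts were tested in R 4.3.3 with edgeR 4.0.16 (filterByExpr, TMM, quasi-likelihood test, Benjamini-Hochberg over 14561 genes, threshold 0.05). One count was worth 0.0319 to 0.0418 CPM. SE is the absolute log2 fold change over the square root of F. FPKM served for comparing genes. The fit was tested on simulated data. Alternatives used DESeq2 1.42.0, limma 3.58.1, other scalings and filters, log2(FPKM + 1) and log2(FPKM + 0.1), a replicate block, a muscle covariate, and each library left out.

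Replicate numbers in the titles were shared between groups. Deviations of same-numbered libraries had correlations of 0.26, 0.13 and 0.41, each above 0.1, the limit used for pairing. Libraries with different numbers had correlations of -0.33 to 0.24, and some of these were above the limit too. Amputation 2 was nearer to sham 1 (0.24) than to sham 2 (0.13), and amputation 1 with sham 2 was at 0.11. These values therefore do not settle whether the libraries were paired. The main test and the permutation tests were unpaired, and the replicate block was an alternative. Named pathway genes were up to 3 called each way per list by smallest p. The 10 genes, the lists and the promoter sequences searched were chosen with earlier results of these data known. 1 gene near Tgfb2 in profile and 1 exon overlap are not reported here. Figures used Python 3.11.15 with matplotlib 3.10.9.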

Additional observations from a re-analysis of the deposited data

How the results depend on the processing

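No gene of the 10 changed direction under any of 17 alternatives. The muscle covariate gave 3 of the 10 higher, and 1794 genes higher and 1000 lower overall. DESeq2 called 9 pathway genes lower, beside 2739 of all 15982 genes it tested, or 17.1%. The replicate block called 7 pathway genes lower, beside 17.3% of all genes. It changed no call among the 10 genes or the 16 named pathway genes. With each library left out in turn, 0 to 7 of the 10 genes were higher and 0 to 1 lower, 11 to 50 pathway genes were higher and 1 to 13 lower, and 1091 to 4212 genes overall were higher and 436 to 4392 lower. Shares within families kept their direction with each library left out, which could not have reversed a share whose groups did not overlap. Rescaling the libraries cannot change a share. The Tgfb2 share, whose groups overlapped, differed by 1.75 percentage points with all libraries and by 0.29 without amputation 1. The cause of these shifts was not tested. Each of the 10 genes had at least 465 counts in each library.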
